A study of Homo sapiens with 22 samples.

Results

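N-MYC promoter sites that carry a canonical E-box and no WDR5 peak numbered 982 of the 10989 N-MYC consensus sites in CHP-134 cells treated with DMSO. They were chosen from the peak lists themselves. The 3 DMSO N-MYC lists were merged into 18058 regions wherever peaks shared at least 1 bp, and 10989 of these regions held peaks of 2 or more lists. The centre of 7442 consensus sites lay within 1 kb of the start site (TSS) of a coding or long noncoding RNA (lncRNA) gene, and 4255 of these promoter sites overlapped no peak in any of the 3 DMSO WDR5 lists. The hexamer CACGTG lay wholly within 100 bp of the summit at 982 of them, where the summit is the highest point of the DMSO peak with the largest −log10 q-value. N-MYC and WDR5 values of the DMSO lists therefore describe how the sites were picked and were not tested.

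ChIP-seq, which sequences DNA pulled down with an antibody against a chromatin protein, was performed with a custom N-MYC serum and a WDR5 antibody in CHP-134 and IMR-32, both neuroblastoma lines with an amplified N-MYC gene. CHP-134 cells were exposed for 4 h either to DMSO, the vehicle, or to a compound that the sample labels name in several ways and that is therefore called the compound here, with 3 libraries for each antibody and treatment and no dose given. IMR-32 cells were untreated, with libraries 1 and 2 for N-MYC and 1 and 3 for WDR5. Each library came from crosslinked chromatin and pooled 3 ChIPs of identical samples. The study's methods describe 3 independent rounds of ChIP, without saying whether each had its own culture, so p-values measure the spread between libraries, part of which may be technical. CHP-134 was sequenced as single reads and IMR-32 as paired reads on another instrument, so cell line and sequencing run cannot be told apart. Expression was not measured, so the cell line labels could not be checked against marker genes.

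MYC proteins bind DNA as heterodimers with MAX through a basic helix-loop-helix domain, and the palindromic E-box CACGTG is the site they bind best. The same hexamer is read by other proteins of this fold, among them the MAX partners of the MXD family, MNT, the USF and TFE families and the clock proteins. WDR5 is a WD40-repeat scaffold of the MLL/SET histone methyltransferase complexes that also binds a conserved segment of MYC proteins, Myc Box IIIb, and is found at promoters of many ribosomal protein genes.

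The sequences below show the E-box, in capitals, with 12 bases on each side, at the sites whose N-MYC peaks ranked highest outside the DMSO lists and at those with the most E-boxes. They are given 5′ to 3′ on the plus strand of hg19, and each is the copy nearest the summit. The 10 sites from PPRC1 to CAMKK2 held an N-MYC peak in all 8 lists, and PPRC1, MAP7D2 and LINC02371 carried 4, 3 and 3 E-boxes.
PPRC1, chr10:103893389-103893418: ggcccgggcatcCACGTGggtcgggctcct
NRSN2-AS1, chr20:305123-305152: cgaactggctcaCACGTGgtgagccgggag
LIG3, chr17:33307447-33307476: gcaactacgaccCACGTGgcagacgggggc
DYM, chr18:46987063-46987092: cagccaggtggtCACGTGgcacgcggcgcg
PDE4A, chr19:10530619-10530648: acagcagccaacCACGTGcgcacacacact
PRMT1, chr19:50180787-50180816: tatcccccctccCACGTGgaggagggctgg
MXD3, chr5:176739265-176739294: gcccagccgctgCACGTGggtgccgcgggg
ENSG00000289004, chr16:58549343-58549372: caaaacaggcacCACGTGgttccggcgccg
IGSF9, chr1:159915563-159915592: agagctcggctgCACGTGggctcaggtcgc
CAMKK2, chr12:121734249-121734278: accgtgtccctcCACGTGgcggggcgtggg
MAP7D2, chrX:20135093-20135122: gcgcagggcgtgCACGTGcgataagcgcac
LINC02371, chr12:2848345-2848374: tgtgtagatgtcCACGTGtgtgcatgtgtg
The nearest TSS to these sites belonged to genes of varied function. PPRC1 is a coactivator of mitochondrial biogenesis, LIG3 a DNA ligase, DYM a protein of Golgi organisation, PDE4A a cyclic AMP phosphodiesterase, PRMT1 an arginine methyltransferase, IGSF9 a neuronal adhesion protein and CAMKK2 a kinase that acts on AMPK. MXD3 belongs to the MXD proteins, which compete with MYC for MAX.

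The lists differed in length, and some stood apart. N-MYC lists held 9125 to 15286 peaks with DMSO, 11249, 2964 and 12313 with the compound (replicates 1 to 3), and 8286 and 5242 in IMR-32. WDR5 lists held 4891, 1758 and 1671 peaks with DMSO, 5973, 15 and 401 with the compound, and 1693 and 1258 in IMR-32. Compound N-MYC replicate 2, compound WDR5 replicates 2 and 3 and DMSO WDR5 replicate 1 thus lay apart from the other libraries of their groups. Most mean differences over lists are also given without 1 or more of them. Shares by octamer and differences within tertiles are given only with them. The lists carry no read totals, so depth is unknown. Absence from a list means only that no peak passed the q-value used for calling.

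The sites sat close to start sites, in GC-rich DNA. The summit lay a median of 220 bp from the nearest TSS, and 79.2% of summits were within 500 bp. In the plot of summit positions the largest share, 19.2%, fell in the 100 bp just upstream of the TSS, and the share dropped to 5.19% between 100 and 200 bp downstream. Promoter N-MYC sites without E-box and without WDR5 (3273 sites) lay closer, at a median of 152 bp with 88.1% within 500 bp, as did the 1026 promoter sites with E-box and WDR5, at 150 bp and 87.3%. Median GC content in the 201 bp around the summit was 67.2%, with 17 CpG dinucleotides, against 69.7% and 20 at sites without E-box and 68.7% and 20 at E-box sites with WDR5. The nearest gene was protein coding at 823 sites (83.8%) and a lncRNA at 159 (16.2%), and 981 coding and 278 lncRNA genes had a TSS within 1 kb.

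**Figure D1:**
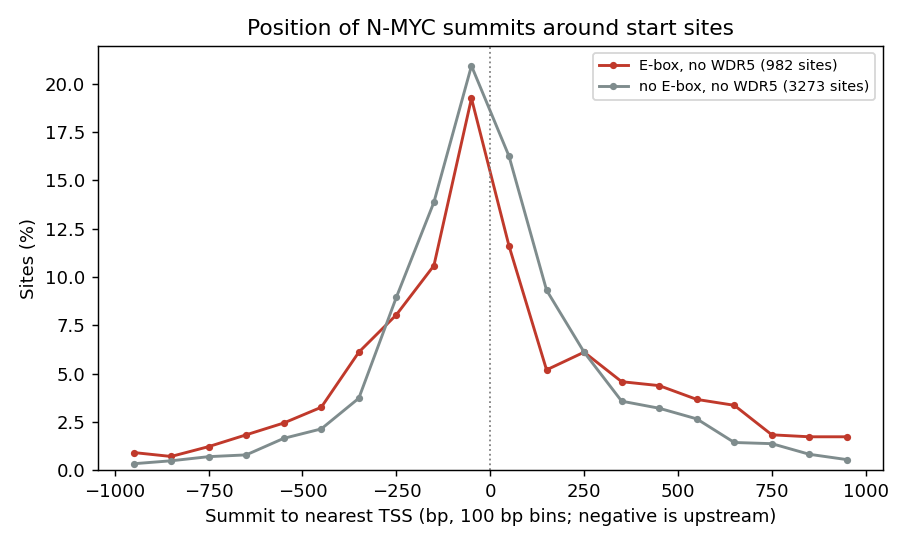
Share of sites (%) by the distance from the N-MYC summit to the nearest TSS in bins of 100 bp, negative upstream, for the 982 E-box sites without WDR5 (red) and the 3273 promoter sites without E-box or WDR5 (grey). The red line peaks at 19.2% just upstream of the TSS and lies above the grey line beyond 300 bp on either side.

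Most of the E-boxes lay in transcribed sequence or just upstream of it. By the transcripts of the nearest gene, the E-box nearest the summit was in an intron at 315 sites (32.1%), in an untranslated region at 139 (14.2%), in a coding exon at 50 (5.09%), in an exon of a noncoding transcript at 51 (5.19%) and outside the gene at 427 (43.5%), of which 107 were inside another gene. It fell in an untranslated region at DYM, CAD and MTHFD1L, in a coding exon at POLR1B, in an intron at HK2, PFAS and PRMT1, and upstream at LIG3, LDHA and SURF6. The median offset from the TSS was −26 bp, with quartiles at −196 and 244 bp. Other short promoter motifs were searched on both strands. GGGCGG, a GC box, was present within 100 bp of the summit at 49.9% of the sites, against 60.2% without E-box, 62.0% with E-box and WDR5 and 38.7% of equally long windows around all 84453 usable TSSs. CCAAT was present at 17.8%, 18.6%, 19.4% and 24.0% in that order, and TATAAA at 2.55%, 1.65%, 1.36% and 6.88%. The noncanonical E-box CACGCG was present at 18.3% of the sites and at 31.5% of those without the canonical hexamer, and in 8.44% of TSS windows. The canonical hexamer itself was present in 4.99% of TSS windows. These matches describe letters and do not show that a factor was bound.

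Bases next to the hexamer were not drawn evenly from promoters. With strands joined, CCACGTGC flanked 204 sites (20.8%) and CCACGTGG 195 (19.9%), whereas these octamers made up 15.9% and 11.3% of the 14252 E-boxes found around promoters. ACACGTGA, at 3.56% of sites against 7.68% of promoter E-boxes, and ACACGTGT, at 2.75% against 5.49%, went the other way. These directions were not particular to members. N-MYC consensus sites of any class held 31.0% and 32.5% of the promoter copies of CCACGTGC and CCACGTGG. They held 17.4% and 13.7% of those of ACACGTGA and ACACGTGT. TCACGTGA, the core of the element bound by the lysosomal regulator TFEB, was in N-MYC consensus sites more often than any other octamer, at 34.7% of its promoter copies against 25.7% of all promoter E-boxes, but made up only 41 of the sites described here (4.18%). The full decamer GTCACGTGAC occurred at 23 sites. Across the 5 N-MYC lists not used to pick the sites, CCACGTGG sites were listed at 87.2%, 46.2% and 93.3% in compound replicates 1 to 3 and at 70.3% and 52.8% in IMR-32, and TCACGTGA sites at 53.7%, 9.76%, 82.9%, 51.2% and 31.7%. CCACGTGG sites were higher in each of these lists. They were also the stronger sites in the DMSO lists, with a median percentile of fold of 71.9 against 42.0, and the part of this in the difference was not tested.

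N-MYC peaks recurred at most of the sites in compound replicates 1 and 3 and at fewer in both IMR-32 lists, while compound replicate 2 listed fewer than either IMR-32 library. Of the 982 sites, 794 (80.9%, 95% exact interval 78.3 to 83.3), 317 (32.3%, 29.4 to 35.3) and 877 (89.3%, 87.2 to 91.2) had a peak in compound replicates 1, 2 and 3. Over all consensus sites the shares were 77.4%, 26% and 83%. In IMR-32, 610 sites (62.1%, 59.0 to 65.2) and 482 (49.1%, 45.9 to 52.3) had a peak, against 51.1% and 36.6% of all consensus sites. Group means were 67.5% ± 30.8 (SD, n = 3) for the compound, where replicate 2 sets the spread, and 55.6% ± 9.22 (SD, n = 2) for IMR-32. The DMSO lists, which picked the sites, held 96.7%, 82.6% and 94.5% of them. Intervals cover the counting of sites only, since the files give no read depth.

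**Figure D2:**
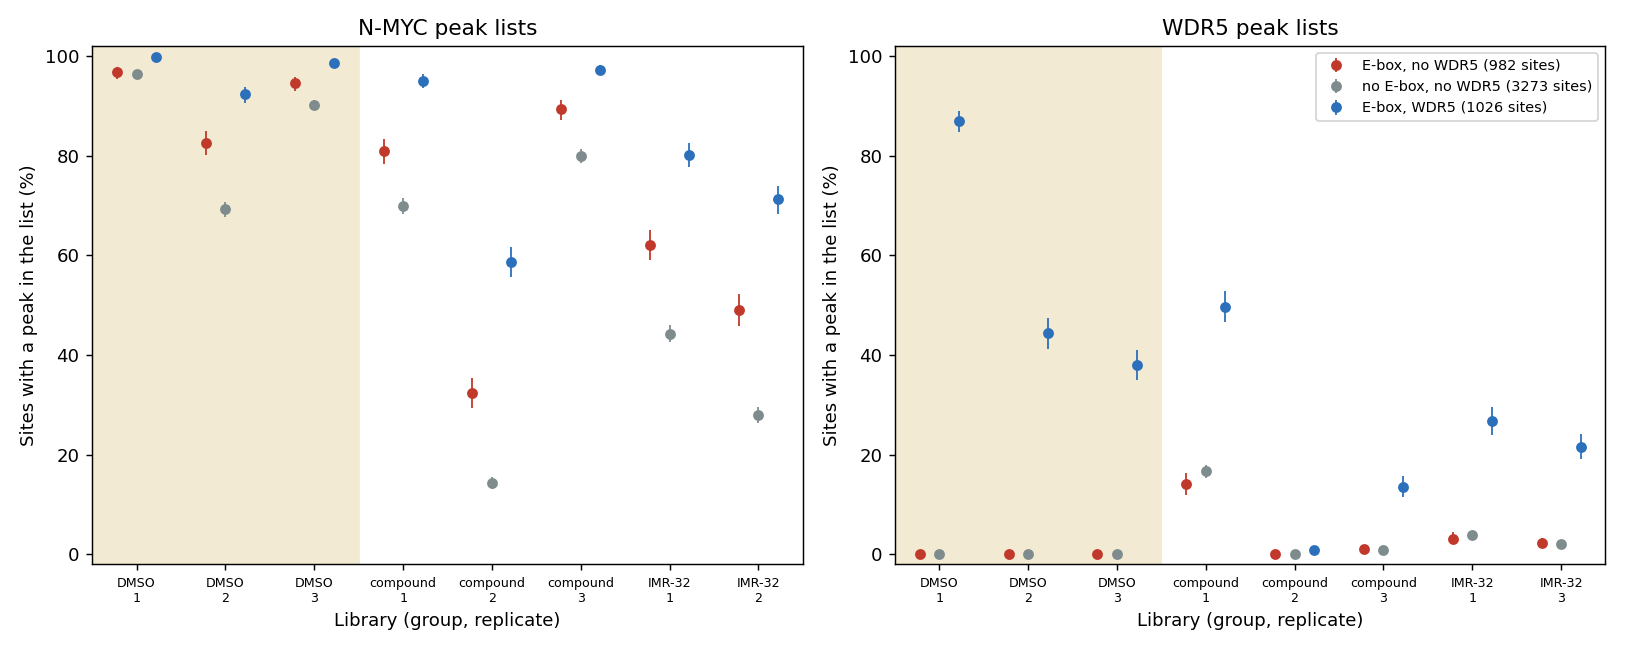
Share of sites (%) with an N-MYC peak (left) or a WDR5 peak (right) in each library, named by group and replicate, with 95% exact binomial intervals, for the 982 E-box sites without WDR5 (red), 3273 promoter sites without E-box or WDR5 (grey) and 1026 promoter sites with E-box and WDR5 (blue). The shaded DMSO lists chose the sites. In the 5 other N-MYC lists red lies above grey and below blue, and in the 5 other WDR5 lists red and grey differ by at most 2.60 percentage points.

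Sites with an E-box within 100 bp of the summit were listed more often than promoter sites without one there. The latter could hold CACGTG farther off, as at 544 sites where the nearest lay 250 to 1000 bp away. The variant CACGCG was near the summit at 31.5% of them. In the order of compound replicates 1 to 3 and IMR-32 replicates 1 and 2, the sites without E-box or WDR5 were listed at 70.0%, 14.2%, 80.0%, 44.3% and 28.0%. E-box sites were higher in 5 of 5 lists, by a mean of 15.4 percentage points (SD 5.06; means 62.7% and 47.3%; exact sign-flip permutation over lists, two-sided p = 0.0625, the smallest that 5 lists allow). Compound N-MYC libraries deviated together with the same-numbered DMSO libraries that chose the sites. The 5 lists are thus not fully independent of that choice, here and in the other tests over them. The difference was 19.5 points in the IMR-32 lists and 12.8 in the compound lists taken alone, and 14.8 without compound replicate 2. E-box sites were also stronger where the rule picked them, at a median DMSO fold percentile of 56.3 against 36.0. Averaged over tertiles of that percentile the mean difference was 4.31 points (SD 3.39, positive in 5 of 5 lists, exact p = 0.0625), and per list 0.326, 5.09 and 1.68 points with the compound and 5.58 and 8.89 in IMR-32. Tertiles differed. In the same order of lists, the lowest gave −1.81, −0.331, 2.64, 3.26 and 5.57 points. The middle gave 1.93 to 4.95, and the highest 0.848, 13.1, 0.269, 11.1 and 16.2. The highest held 533 E-box sites and 885 others. The same number of strongest peaks was also taken from each list. Sites were then rebuilt from the shortened lists, here and wherever equal numbers of strongest peaks are given below. Without tertiles, the mean difference was 10.1 points under this setting.

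Among listed peaks, those at E-box sites also ranked higher. Fold, the authors' ratio of signal at the summit over local background, depends on each library, so it was ranked within each list, where 100 is the strongest peak. The median rank at E-box sites was 62.0, 56.5 and 69.3 in compound replicates 1 to 3 and 69.4 and 66.5 in IMR-32. At sites without E-box it was 46.1, 39.4, 49.9, 48.5 and 44.8. The difference was 19 on average (SD 2.48, higher in 5 of 5 lists, exact sign-flip p = 0.0625, the smallest possible), and 19.4 without compound replicate 2. The median percentile in the DMSO lists was already 56.3 against 36.0, and the part of this in the rank difference was not tested.

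Set against promoter sites with an E-box and a WDR5 peak, the sites without WDR5 were listed less often. The cobound E-box sites had N-MYC peaks at 95.0%, 58.7% and 97.3% in compound replicates 1 to 3 and at 80.2% and 71.2% in IMR-32. Sites without WDR5 were lower in 5 of 5 lists, by 17.8 points on average (−17.8, SD 7.12; means 62.7% and 80.5%; exact sign-flip permutation, two-sided p = 0.0625, the smallest possible), and by 15.6 points (−15.6) without compound replicate 2. DMSO strength differed here too, with a median percentile of 78.7 at the cobound sites, and within its tertiles the difference was −6.10 points (lower in 5 of 5 lists). Without tertiles the difference was −11.5 points for sites in all 3 DMSO lists, and −8.14 with equal numbers of strongest peaks. It was −17.7 points when only WDR5 regions of 2 or more DMSO lists counted as WDR5.

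A core of 223 sites (22.7%) held an N-MYC peak in all 5 lists that did not pick them, against a background of 15.9% over all consensus sites. The share was 7.79% without E-box and 48.2% with E-box and WDR5. Compound replicate 2 limits this count: 407 sites (41.4%, background 28.6%) were in the other 4 lists. Peaks were in both IMR-32 lists at 435 sites (44.3%, background 31.6%), in 1 at 222 and in neither at 325 (33.1%, background 43.8%). Peaks were in all 3 compound lists at 311 sites (31.7%, background 24.6%), in replicates 1 and 3 at 746 (76.0%, background 69%), and in no compound list at 57 (5.80%, background 8.38%). At the other end, 42 sites (4.28%, background 6.49%) had no peak in any of the 5 lists.

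**Figure D3:**
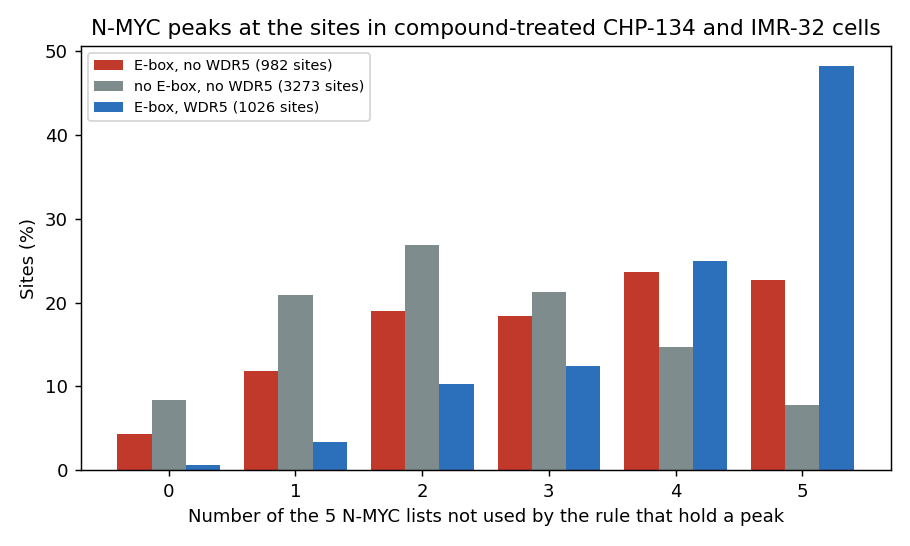
Share of sites (%) by how many of the 5 N-MYC lists not used to choose them (3 compound, 2 IMR-32) hold a peak, for E-box sites without WDR5 (red), sites without E-box or WDR5 (grey) and E-box sites with WDR5 (blue). Red is highest at 4 lists (23.7%), grey at 2 (26.9%) and blue at 5 (48.2%).

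PPRC1, LIG3 and DYM were named for their high ranks in the 5 lists not used by the rule, so high values there describe that choice. At PPRC1 the N-MYC fold was 16.2, 16.7 and 29.4 with DMSO, 15.3, 13.1 and 24.8 with the compound, and 15 and 24.5 in IMR-32. At LIG3 it was 27.2, 15.5 and 15.6 with DMSO, 21.9, 11.7 and 14.3 with the compound, and 16.9 and 13.2 in IMR-32. The lowest fold at both genes was in compound replicate 2. The lowest percentile over the lists was 98.5 at PPRC1 and 96.5 at LIG3. DYM had folds of 11, 20.7 and 23.8 with DMSO, 9.20, 13.9 and 24.2 with the compound, and 20.7 and 19.9 in IMR-32. Replicate 1 of each CHP-134 group was the low one at DYM, so the order of libraries was not the same at every site.

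The 42 members with no peak outside the DMSO lists had mean DMSO fold percentiles from 1.86 to 68.3, with a median of 24.7, against 56.3 over all members. The 5 highest of them were the sites of ZDHHC9, a palmitoyltransferase, ARF1, a small GTPase of Golgi traffic, ZNF581, MEF2C-AS1 and PRPS1, which makes the sugar phosphate for nucleotides. At ZDHHC9 the DMSO folds were 6.03, 5.74 and 6.73, and at ZNF581 5.25, 4.46 and 4.46. ARF1 was listed at 5.87 and 6 in DMSO replicates 1 and 2, PRPS1 at 6.39 and 4.75 in the same lists, and MEF2C-AS1 at 6.49 and 5.63 in replicates 1 and 3. Listing in DMSO moved with listing elsewhere: the 257 sites found in 2 DMSO lists had peaks at 55.3%, 2.72% and 69.6% with the compound and 29.6% and 18.7% in IMR-32, and the 725 found in all 3 had them at 89.9%, 42.8%, 96.3%, 73.7% and 59.9%.

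Whether the compound lists differed from DMSO was asked with sites rebuilt from 2 DMSO lists, so that the DMSO list left out could serve as control. The left-out lists 1, 2 and 3 held 95.9%, 81.0% and 93.0% of 782, 898 and 772 rebuilt sites. Compound replicates 1, 2 and 3 held 86.3%, 38.3% and 93.5%, as means over the rebuilt sets. The compound mean was 72.7% ± 29.99 (SD, n = 3) and the DMSO mean 90.0% ± 7.93 (SD, n = 3), a difference of −17.3 points that was smaller than the spread between compound libraries (exact permutation test, two-sided p = 0.6, smallest possible 0.1). Replicate 2 decides this value: without it the difference was −0.066 points (exact p = 1, smallest possible 0.1). That value sets 2 compound libraries against all 3 DMSO ones. Since same-numbered libraries deviated together, the differences within pairs were also taken, and they were −7.93, −45.7 and −0.130 points for numbers 1 to 3, lower in 3 of 3 pairs. Their mean was −17.9 points, and −4.03 without pair 2 (exact sign-flip p = 0.5, the smallest that 2 pairs allow). Unpaired, the difference was −24.0 and −27.7 points without compound replicates 1 and 3, and −2.45 points with equal numbers of strongest peaks.

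At these sites the summits of the other lists also fell near the E-box. The choice of sites favours this, since it required an E-box within 100 bp of the DMSO summit. The distances are therefore a description. The median distance from a list's own summit to the centre of the nearest E-box was 34.5, 27.5 and 32.5 bp in compound replicates 1 to 3 and 22.5 and 24.5 bp in IMR-32, and it was 27.5 to 29.5 bp in the DMSO lists. Between 61.6% and 73.9% of these summits were within 50 bp. In the plot of these distances the bin nearest the E-box is the highest in all 8 lists. Among members, listing varied with the distance in DMSO: the 483 sites with the E-box centre within 25 bp were listed at 66.7% and 54.0% in IMR-32, the 167 at 50 to 75 bp at 50.9% and 36.5%, and the 78 at 75 to 97.5 bp at 61.5% and 47.4%, which is no steady order. Just past the limit, 122 promoter sites without WDR5 whose nearest E-box was 97.5 to 150 bp away were listed at 51.6% and 34.4%.

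**Figure D4:**
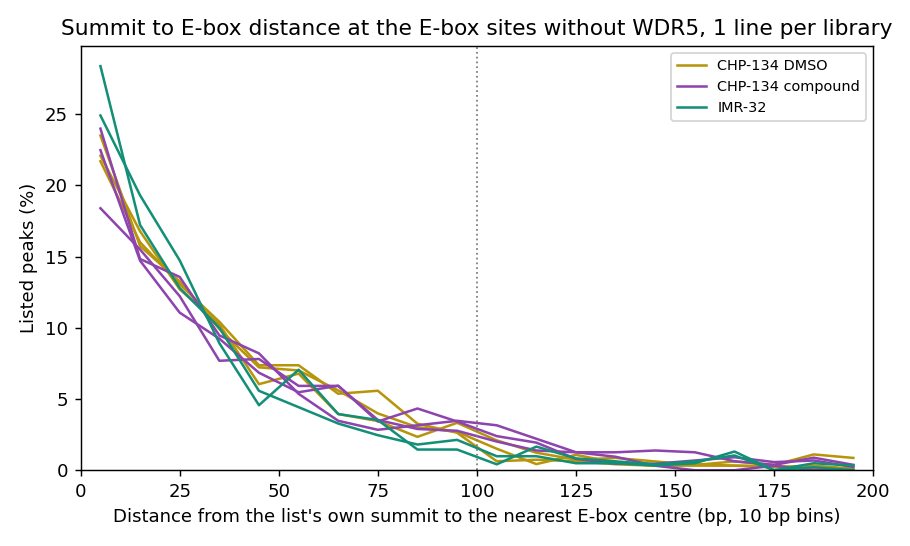
Share of listed N-MYC peaks (%) at the 982 sites by the distance from the list's own summit to the centre of the nearest E-box, in bins of 10 bp, one line per library of CHP-134 with DMSO (gold) or the compound (purple) and of IMR-32 (green). The dotted line marks the 100 bp used to choose sites from DMSO summits, and in every library the bin nearest the E-box is the highest.

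At the limits of the rule, the sites just inside 1 kb of a TSS were those of ENSG00000262172 (976 bp), ZCCHC14 (979 bp) and DYRK2 (980 bp), with mean DMSO percentiles of 38.6, 37.98 and 54.4. Just outside were NECTIN1 (1002 bp, 27.7), CPT1A (1011 bp, 23.97) and ABCC1 (1011 bp, 32.9). At the E-box limit, CAMK2N2, MXD4 and SRFBP1 were inside at 97.5 bp, with mean DMSO percentiles of 38.2, 64.1 and 29.98, and FOXP1 (98.5 bp, 32.6), UTP23 (98.5 bp, 56.4) and LPCAT4 (99.5 bp, 19.9) were outside.

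Sites with more than 1 E-box were few. There were 917 sites with 1 E-box (93.4%), 61 with 2, 3 with 3, and PPRC1 with 4, whereas 15% of E-box sites with WDR5 had 2 or more. The nearest copies were a median of 44 bp apart, start to start, and 20 bp or less at 8 sites. Sites with 2 or more were listed at 81.5%, 44.6% and 90.8% with the compound and 70.8% and 60% in IMR-32, and sites with 1 at 80.8%, 31.4%, 89.2%, 61.5% and 48.3%. The mean difference was 7.29 points (SD 5.79, higher in 5 of 5 lists, exact sign-flip p = 0.0625, the smallest possible), and 5.81 without compound replicate 2. It turned to −0.436 points within tertiles of DMSO strength (exact p = 0.5625) and was 3.98 points when E-boxes were counted within 50 bp. At MAP7D2 the 3 E-boxes came with folds of 11.8, 6.98 and 10.3 with DMSO, 9, 5.56 and 8.69 with the compound and 5.14 in IMR-32 replicate 1 only. At LINC02371, a lncRNA gene, folds lay between 4.23 and 7.05 in the 6 lists that held a peak.

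WDR5 was seldom called at these sites in the lists that did not choose them. Peaks were present at 138 sites (14.1%), 0 and 10 (1.02%) in compound replicates 1 to 3, and at 31 (3.16%) and 22 (2.24%) in IMR-32 replicates 1 and 3, against 22.9%, 0.127%, 3.07%, 9.35% and 7.41% of all consensus sites. A WDR5 peak in at least 1 DMSO list marked 3187 promoter sites. These had one again at 44.5%, 0.439% and 8.50% with the compound and at 24.5% and 20.6% in IMR-32. The members were lower in 5 of 5 lists, at a mean of 4.09% against 19.7% (difference 15.6 points, SD 11.8, exact sign-flip permutation, two-sided p = 0.0625, the smallest possible). Without compound WDR5 replicates 2 and 3 in turn the difference was 19.4 and 17.7 points, it was 19.5 when DMSO WDR5 replicate 1 took no part in choosing sites, and 29.6 over the 3 longer lists with equal numbers of strongest peaks. No peak was found in any of the 5 WDR5 lists at 811 members (82.6%, background 70.8%). That background includes the sites with a DMSO WDR5 peak. Among classes also without one, the share was 79.3% at promoter sites without E-box. Farther than 1 kb from a TSS it was 92.0% with an E-box and 91.1% without.

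No difference in WDR5 between sites with and without an E-box was detectable with these lists. Sites without E-box or WDR5 had WDR5 peaks at 16.7%, 0% and 0.825% with the compound and at 3.88% and 2.05% in IMR-32. E-box sites differed by −0.587 points on average (SD 1.19, higher in 2 of 5 lists, exact sign-flip p = 0.5). Compound WDR5 replicate 2, a list of 15 peaks, was a tie, with both classes at 0%. Without compound WDR5 replicates 2 and 3 in turn the difference was −0.734 and −0.782 points. The sign turned to 0.409 points when DMSO WDR5 replicate 1 took no part in choosing the sites.

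A few members did carry WDR5 in IMR-32. There were 40 with a peak in at least 1 IMR-32 list (4.07%, background 10.8%) and 13 with one in both (1.32%, background 5.93%). Promoter sites without E-box or WDR5, also chosen for lacking WDR5 in DMSO, gave 4.83% and 1.10%. Of the 40 members, ZNF462, a zinc finger gene, had the highest WDR5 folds, 23.6 and 23.4. Its N-MYC folds were 4.01 to 4.83 in 5 lists, and its site lay 161 bp from a DMSO WDR5 peak. At SPPL3, an intramembrane protease of the Golgi, WDR5 folds were 12.3 and 8.60 in IMR-32 and 6.76 and 5.23 in compound replicates 1 and 3, and N-MYC was listed at 5.13, 5.60 and 4.91 with DMSO, in no compound list, and at 8.30 and 9.86 in IMR-32. PRRC2B had WDR5 folds of 9.26 and 6.65, and its site lay 346 bp from a DMSO WDR5 peak. PRDX4, a peroxiredoxin of the endoplasmic reticulum, had 7.20 and 8.01, ITFG2-AS1 7.37 and 6.29, and MFSD14A 6.87 and 7.39. Sites named for other reasons also had WDR5 in IMR-32, among them PRMT1 (5.07 and 3.91) and GABARAP (5.33 and 6.86) in both lists. POLR1B (4.50), EEF1B2 (4.19) and CAD (3.23) had it in replicate 1 alone, and NOP56 (4.51) in replicate 3 alone. WDR5 was in a compound list at 146 members (14.9%, background 23.9%), and at 17.2% of promoter sites without E-box or WDR5. Of the 146 members, 138 were in replicate 1, the longest WDR5 list. Those in replicate 1 included the sites of PFAS (fold 5.12), RPL22 (4.93), RPS28 (4.25), EEF1B2 (3.32) and HK2 (2.84). These 138 had a median DMSO N-MYC percentile of 66.9, 48 were in all 5 other N-MYC lists, and 15 of the 146 also had WDR5 in IMR-32. A DMSO WDR5 peak lay within 1 kb of 72 members (7.33%), at 15 bp in the nearest case, and the median distance was 76.3 kb.

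The genes at these sites were counted with lists of known function, each beside the share of all 20149 protein-coding genes with a member within 1 kb of a TSS, 4.87%. These counts are descriptions, with no test. Ribosome biogenesis had 22 of 87 genes at members (25.3%), glycolysis 7 of 21 (33.3%), nucleotide and one-carbon synthesis 10 of 40 (25%), the MYC, MAX and MXD network 3 of 13 (23.1%) and chaperones 8 of 39 (20.5%). High shares were not particular to members. In the same order, promoter sites without E-box or WDR5 held 32.2%, 33.3%, 17.5%, 23.1% and 23.1%, against 16.4% of all coding genes. Promoter N-MYC sites of any class held 94.3%, 81.0%, 87.5%, 76.9% and 92.3%, against 36.7%. At the other end were cytosolic ribosomal proteins with 3 of 79 (3.80%), mitochondrial ribosomal proteins with 4 of 77 (5.19%) and aminoacyl-tRNA synthetases with 2 of 38 (5.26%). Promoter sites without E-box or WDR5 held 37.7% of the mitochondrial ribosomal protein genes and 42.1% of the synthetase genes. For cytosolic ribosomal proteins, 55 of 79 (69.6%) were instead at promoter N-MYC sites with WDR5 and no E-box, against 11.6% of all coding genes. Lysosome and autophagy genes were at members in 6 of 60 cases (10%) and at E-box sites with WDR5 in 23 (38.3%, against 5.52% of all coding genes), and polyamine synthesis genes in 1 and 4 of 11. The remaining lists were circadian clock (4 of 25), mitochondrial import and nucleoids (6 of 42), translation factors (6 of 48), cell cycle and DNA replication (9 of 90), oxidative phosphorylation (7 of 77), DNA repair (7 of 96) and spliceosome (6 of 83).

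**Figure D5:**
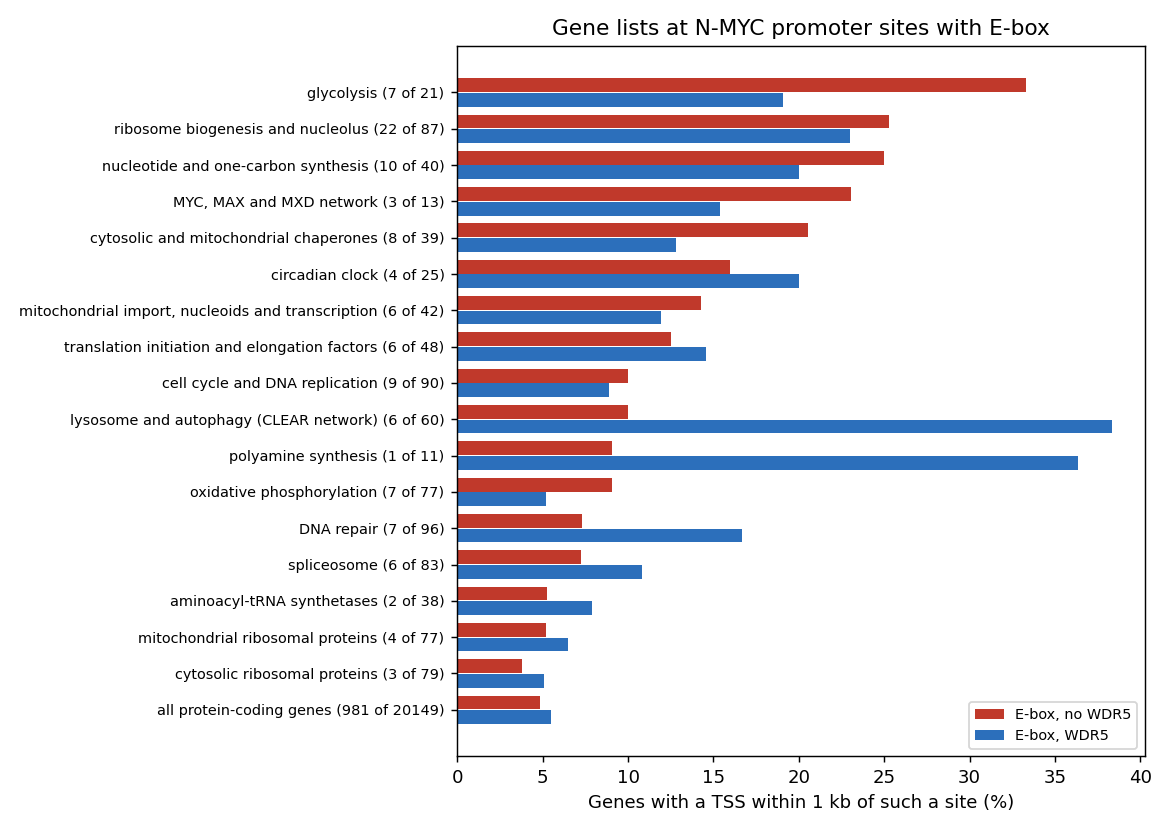
Share of the genes of each list (%) with a TSS within 1 kb of the centre of an E-box site without WDR5 (red; counts in the labels) or of a promoter E-box site with WDR5 (blue), beside all protein-coding genes. Glycolysis (33.3%) has the longest red bar, and lysosome and autophagy (38.3%) the longest blue one.

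Ribosome biogenesis supplied the largest number of genes. PES1, a factor for the large ribosomal subunit, had N-MYC folds of 12.1, 10.1 and 16.3 with DMSO, 12.4, 10.1 and 15.9 with the compound and 9.47 and 8.66 in IMR-32. SURF6, a nucleolar matrix protein that the study also used as a locus without WDR5, had 14.3, 12.2 and 11.7, then 11.5, 9.61 and 11.8, then 13.9 and 7.62, with its E-box centre 35.5 bp from the summit. Both genes were listed in every N-MYC library. DMSO and compound ranges overlapped at both, and the IMR-32 values lay below them at PES1 but not at SURF6. A WDR5 peak was called at each in compound replicate 1 alone, at folds of 4.38 for PES1 and 4.01 for SURF6. POLR1B, a core subunit of RNA polymerase I, had N-MYC folds of 9.34, 16.9 and 8.20 with DMSO, 11.2, 10.7 and 7.13 with the compound and 9.06 and 9.62 in IMR-32. Its site had WDR5 peaks in compound replicate 1 (fold 4.45) and IMR-32 replicate 1 (4.50). Of the 22 genes, 16 had their site in both IMR-32 lists and 10 in all 5 lists not used to choose sites, against 45.8% and 23.9% of the 981 coding genes at members. The 10 included NOP56 and FBL, proteins of the complexes that methylate ribosomal RNA. EBNA1BP2 was at the low end, with a peak in 2 of the 5.

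Nucleotide and one-carbon genes were led by CAD, the enzyme that opens pyrimidine synthesis. Its folds were 12.4, 10.3 and 12.9 with DMSO, 11.1, 5.15 and 11.6 with the compound, and 10.4 and 14.2 in IMR-32. MTHFD1L, a mitochondrial folate enzyme, had 12.1, 4.26 and 11.6 with DMSO, 10.1 and 13.5 in compound replicates 1 and 3, and 17.8 and 18.9 in IMR-32. It was missing from compound replicate 2, and both IMR-32 values were above the CHP-134 ones, though folds of different lists are not on a common scale. PFAS, an enzyme of purine synthesis, was in all 8 lists with folds from 5.13 to 14.0. PRPS1, described above, was in none outside DMSO, and 5 of the 10 genes were in both IMR-32 lists, a share near the 45.8% of coding genes at members.

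In glycolysis, HK2 and LDHA were listed in all 8 libraries. HK2, the hexokinase that starts the pathway, had folds of 14.4, 7.17 and 19.3 with DMSO, 10.5, 5.27 and 15.1 with the compound, and 14.8 and 13.3 in IMR-32. LDHA, lactate dehydrogenase, had 14.0, 8.68 and 5.84, then 12.8, 4.22 and 7.12, then 12.7 and 14.4. At both genes the lowest value came from compound replicate 2. PFKP, a phosphofructokinase, had folds of 4.87 to 8.94 in 7 lists and was absent from that replicate, and 4 of the 7 genes were in both IMR-32 lists, where 45.8% of coding genes at members were.

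The 3 members of the MYC network were all antagonists of MYC. MXD3 had folds of 14.0, 15.3 and 13.8 with DMSO, 11.6, 10.3 and 14.4 with the compound and 21.1 and 12.2 in IMR-32. MNT had 11.9, 9.01 and 7.97, then 11.2, 6.72 and 8.19, then 9.01 and 14.0. MXD4 had 5.88, 5.13 and 6.94 with DMSO, 4.82 and 6.33 in compound replicates 1 and 3, and no peak in IMR-32. MXD3 and MNT were thus listed in every library, and MXD4 in CHP-134 alone.

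Among other lists, sites varied in how far they recurred. For cell cycle genes, POLD2, a DNA polymerase delta subunit, had folds of 6.36 to 9.77 in all 8 lists, CCND1, cyclin D1, 4.16 to 7.50 in all 8, and TFDP1, a partner of E2F, 6.16 to 10.6 in 7. The clock gene PER1 had 4.08, 4.27 and 4.69 with DMSO, 4.26 and 4.63 in compound replicates 1 and 3, and 7.19 and 8.08 in IMR-32, and DBP was listed in 6 libraries. USP2, a deubiquitinase with clock-dependent expression, had its site nearest to USP2-AS1, in all 8 lists at folds of 5.56 to 11.3. Autophagy genes included WIPI1, at 5.37 to 12.9 in all 8 lists, and GABARAP, at 2.82 to 12 in 7. The polyamine enzyme SRM had 7.87, 6.08 and 6.82 with DMSO, 5.56 and 8.11 in compound replicates 1 and 3 and no peak in IMR-32. Among chaperones, HSPH1 was in all 8 lists (4.60 to 7.13) and HSPA8 in 7 (3.11 to 6.96).

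Some sites serve 2 genes of these lists, so they are not separate observations. EEF1B2, a translation elongation factor, and NDUFS1, a subunit of respiratory complex I, share 1 site, with folds of 7.26 to 14.9 in all 8 lists. RPS28 and NDUFA7 share another, in 7 lists at 4.40 to 9.61. RPL22, one of the few cytosolic ribosomal protein genes here, had folds of 5.10 to 9.28 in all 8 lists. Mitochondrial ribosomal proteins were led by MRPL45, at 5.18 to 12.3, and MRPL36, at 5.15 to 9.08, both in all 8 lists. In DNA repair, LIG3 was followed by the site of PMS2, nearest to AIMP2, at 5.95 to 18.4, again in all 8 lists.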

How the data were processed

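Samples were grouped by the sample labels, and the rule that picked sites used the DMSO lists only. The authors used Cutadapt for trimming, Bowtie2 for alignment to hg19 and MACS2, at a q-value of 0.05, for peaks of each library. Versions and the control library are not given in the sources used here. For each peak the deposited lists give the authors' fold, a linear ratio of signal to local background, and p-value and q-value on a −log10 scale. They also give the authors' score, an integer made from the q-value, which was not used, and the offset of the summit. IgG samples were not analysed here.

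A site counted as listed with 1 bp of overlap. Folds were ranked within each list. TSSs (84651) came from GENCODE 44 mapped to GRCh37, coding and lncRNA genes. Sequence was read from GRCh37. Intervals are exact Clopper-Pearson intervals at 95%. Differences within lists were tested by exact sign-flip permutation and between groups by exact permutation, all two-sided, in designs that cannot reach 0.05. Each gene list was counted within 1 kb of site centres. Of 927 list genes, 926 were in the annotation.

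Sites are named by the nearest TSS. Named were the 10 sites in all 5 lists not used by the rule with the highest mean rank, up to 3 genes of each list with 3 or more, the SURF6 locus, up to 6 sites with WDR5 in both IMR-32 lists, the 3 with the most E-boxes, 5 with no other peak and those at the limits. NOP56, FBL, EBNA1BP2 and SRM lie outside this rule and were chosen after their values were seen. A site that the rule names is not reported here. Members and gene lists were chosen with earlier results of these data known. Same-numbered DMSO and compound N-MYC libraries deviated together (correlations 0.375, 0.317 and 0.384 over 20010 regions), so their numbers pair them. Alternatives changed the q-value, lists needed, E-box window, TSS distance, WDR5 rule, overlap, equal numbers of strongest peaks, the replicate block and each library in turn. Taking equal numbers of strongest peaks also changed which sites were chosen. Tertiles of DMSO strength, IMR-32 and compound lists alone, and pairs left out, were added after seeing the data. Overlaps, merging, ranks, motif search and tests were tested on simulated data. Software was Python 3.11.15, NumPy 2.4.6, SciPy 1.17.1, pysam 0.24.0, matplotlib 3.10.9 and samtools 1.23.1.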

Additional observations from a re-analysis of the deposited data

How the results depend on the processing

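Directions held under every alternative run except for 2 results. WDR5 listing of E-box against no E-box sites turned to 0.479 points with −log10 q of 5 or more, 0.682 when only WDR5 regions of 2 or more DMSO lists barred a site, and 0.0558 with equal numbers of strongest peaks (3 lists), and ranged from −0.782 to 0.409 with a library left out. The difference by number of E-boxes turned to −0.436 points within tertiles of DMSO strength, which were chosen after seeing the data. The number of sites was 1533 under the looser WDR5 rule and 772 to 1405 with a library left out, the highest without DMSO WDR5 replicate 1. List genes at sites numbered 111, but 73 with E-boxes within 50 bp, 181 under the looser WDR5 rule, and 96 to 163 with a library left out. The mean of the median summit distances was 28.3 bp, 34.9 with a window of 250 bp, and 26.6 to 28.3 with a library left out. With a library left out, E-box against no E-box sites gave 13.4 to 17 points, their fold ranks 17.2 to 20.6, sites without against with WDR5 −20.2 to −12.9, WDR5 at cobound sites against members 11.9 to 19.5, 2 or more E-boxes 5.81 to 10.6, and compound against held-out DMSO −27.7 to −0.0664. The replicate block gave −17.9 points for the last (exact sign-flip p = 0.25, the smallest 3 pairs allow) and −26.8 to −4.03 with a pair left out, and changed no call. Requiring all 3 DMSO lists gave no value for the held-out comparison. No setting could reach 0.05 with so few lists, and unknown depth limits what a missing peak shows. The cause of these changes was not tested.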
